A study of Homo sapiens with 8 samples.

Results

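The genes described here encode the machinery through which KMT2A fusion proteins act: the fusion gene *KMT2A* and its partner *AFF1*, the chromatin tethers *MEN1* and *PSIP1*, the super elongation complex genes *AFF4*, *MLLT1*, *MLLT3* and *ELL2*, and the DOT1L complex genes *DOT1L* and *MLLT10*. These 10 genes were chosen by name from the 60754 genes and spike-in sequences of the table, with earlier results of these data known. All 10 passed the filter on low values (1 TPM or more in 1 or more libraries), as did 15614 genes in all.

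KMT2A is a histone methyltransferase of active promoters that is broken and joined to a partner in a group of acute leukemias. The retained amino-terminal part binds DNA that holds unmethylated CG dinucleotides and binds menin, the product of *MEN1*, which connects it to LEDGF, the product of *PSIP1*. Several partners are subunits of the super elongation complex, which releases paused RNA polymerase. Others belong to the complex around DOT1L, a histone methyltransferase of transcribed genes. A fusion protein with such a partner carries these activities to KMT2A target genes.

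SEM is an established cell line from a B-cell precursor acute lymphoblastic leukemia with a *KMT2A-AFF1* fusion. All cells were CTCF-AID2 SEM cells, in which both alleles of *CTCF*, encoding the chromatin insulator protein, were joined at the 3′ end to a miniAID-mClover3 tag, and which carried a lentiviral OsTIR1(F74G)-P2A-ZeocinR cassette under the MND promoter. OsTIR1(F74G) is a plant receptor variant that marks the tagged protein for degradation when the auxin analog 5-Ph-IAA is present. Parental cells of the clones C17.2 and C3.2 were untreated. Resistant cells of each clone had been cultured for 36 days in 1 μM 5-Ph-IAA with 100 μg/ml Zeocin. They grew again before this treatment ended, and the drugs were then withdrawn before harvest. The resistant lines also differ in genotype, since a nonsense change in *CTCF* is described for C17.2 and a change within the miniAID tag for C3.2, neither of which was examined here. Total RNA depleted of ribosomal RNA was sequenced from 2 libraries per group, 8 in all. Each resistant line came from 1 clone, and the leading number of the library names, whose meaning is not given, ran in a separate series for each clone, so that the clone and whatever that number marks cannot be told apart. Nothing in the labels says that the libraries of a group were separate cultures, and p-values then measure only the spread between these libraries, which may be technical.

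Levels were TPM (transcript abundance relative to all transcripts of a library, per gene length), divided here by a factor per library of 0.899 to 1.15 and called scaled TPM. TPM keeps no depth, so the depth of each library is unknown. Pearson's r between the libraries of a group, across genes, was 0.968 to 0.979. Of 8 markers of B-cell precursors, 7 were at 1 TPM or more in all libraries, and *DNTT* was at 0.25 TPM or less. The markers *IGLL1*, a surrogate light chain gene, and *CD79B*, a signaling chain of the B-cell receptor, were at 80.6 to 166 TPM and at 12.2 to 15.3 TPM in parental libraries, and at 20.1 to 31.7 TPM and 4.33 to 7.49 TPM in resistant libraries. The summed markers of T cells, of erythroid cells and of epithelial cells reached at most 0.43 TPM in any library, and those of myeloid cells were at 2.26 to 4.39 TPM. *COL1A1* was at 7.45 and 6.50 TPM in C17.2 resistant cells and at 2.24 to 3.78 TPM elsewhere, while the other fibroblast markers *COL1A2* and *COL3A1* were at 0 in all libraries. *PECAM1* was at 1.15 to 3.44 TPM in parental and at 2.17 to 4.98 TPM in resistant libraries, with the endothelial markers *CDH5* and *VWF* at 0.01 TPM or less. The part of these marker differences in the results was not tested.

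The 10 genes differed widely in level. *PSIP1* was the most abundant, with a mean of 71.0 scaled TPM over the 8 libraries (49.1 to 98.8), higher than 93% of the 11210 protein-coding genes tested. *AFF1* followed at 61.3 (50.3 to 72.7), and the ranges of these 2 genes overlapped. *KMT2A* at 39.8 (34.8 to 44.2), *MLLT10* at 28.5 (24.2 to 32.5) and *AFF4* at 21.8 (19.1 to 24.2) did not overlap with their neighbors in this order. *DOT1L* at 16.3 (12.9 to 17.9), *MEN1* at 12.2 (9.74 to 14.5) and *MLLT1* at 11.1 (9.59 to 13.7) overlapped each with the next. *ELL2* was at 6.47 (4.57 to 7.75). *MLLT3* was the lowest, at 1.09 scaled TPM (0.616 to 1.42), above 4.59% of protein-coding genes and its changes had the largest standard error of the 10 (0.19). Reads of the fusion and of the intact alleles cannot be told apart in a gene-level TPM, for *KMT2A* as for *AFF1*.

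**Figure D1:**
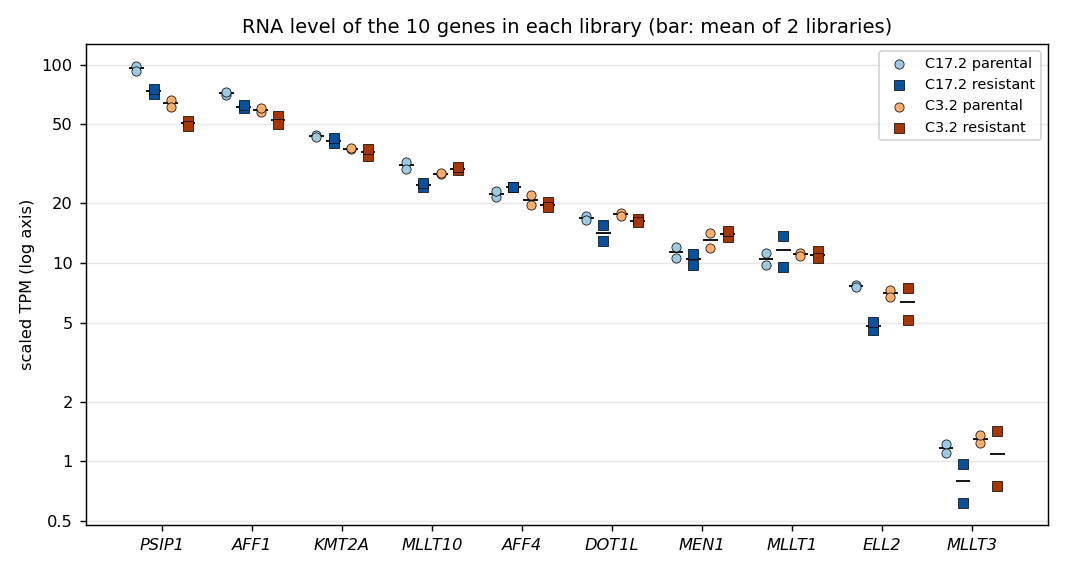
Scaled TPM (log axis) of each of the 10 genes in the 8 libraries, ordered by mean level; circles are parental and squares resistant libraries, and the bar is the mean of the 2 libraries of a group. *PSIP1* is below both parental libraries in both resistant libraries of each clone, while *MLLT10* lies below them in C17.2 and above them in C3.2.

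Resistant cells were compared with parental cells of the same clone to ask how transcripts of this machinery stood in cells that had outgrown long-term auxin treatment. In such bulk samples, fewer cells of a type and less RNA per cell cannot be told apart. In C17.2, 4 of 10 genes were lower in resistant cells (*PSIP1*, *ELL2*, *MLLT10* and *AFF1*), none was higher and 6 did not pass the test (limma, Benjamini-Hochberg adjusted p under 0.05 over all genes tested). Over all genes, 14.2% were lower and 12.9% were higher. The median log2 fold change of the members was -0.23 against -0.0034 over all genes tested. In C3.2, *PSIP1* alone of the 10 was lower, against 6.74% of all genes, and none was higher, against 4.54%. The median there was -0.090 against 0 over all genes. The clones differed in their change for *MLLT10* alone of the 10 (interaction), against 9.7% of all genes.

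The same comparison can be read library by library. In C17.2, both resistant libraries were below both parental libraries for 7 members and above them for *AFF4*, where 33.4% of all genes were below and 32.4% above. In C3.2 they were below for 4 members and above for *MLLT10*, where 27.7% of all genes were below and 28.3% above. These counts depended on the scaling. On TPM as deposited, 2 members were below and 1 was above in C17.2, where 18.7% of all genes were below and 49.2% above. In C3.2, 1 was below and 2 were above, against 19% and 36.6% of all genes. No member passed the test on that scale, whereas 32.8% of all genes did in C17.2, 7.94% in C3.2 and 8.23% in the interaction. The median of all genes tested was 0.13 in C17.2 on that scale (0.053 in C3.2), and the share of calls that were higher moved from 47.7% to 75.1% in C17.2 and from 40.2% to 57.8% in C3.2. With TPM rescaled over protein-coding genes these shares were 64.5% and 70.1%, 50.8% of calls were higher in C3.2 after quantile normalization, and for the interaction the share of positive calls moved from 46.7% to 64.0% on TPM as deposited.

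**Figure D2:**
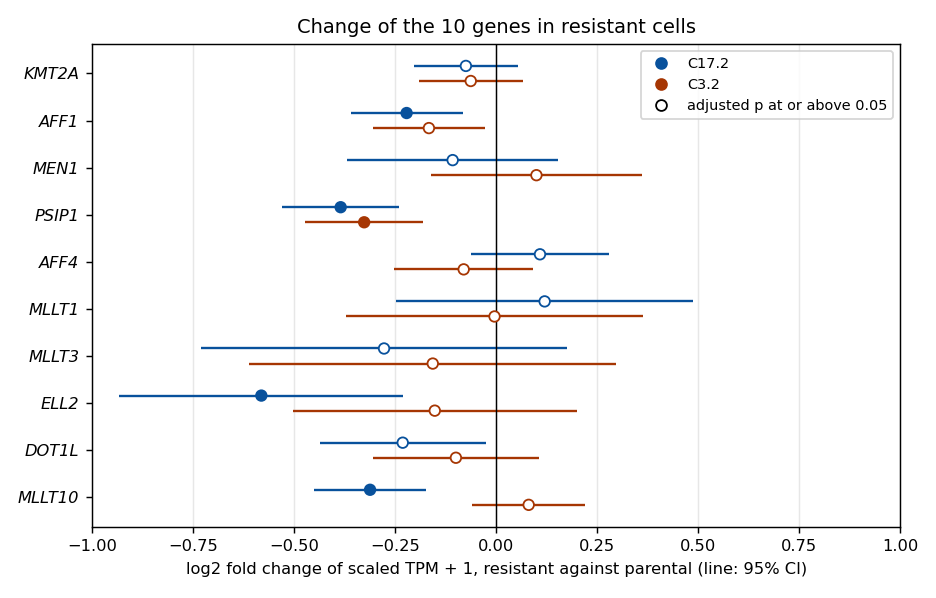
Log2 fold change of scaled TPM + 1 in resistant against parental cells for the 10 genes, in C17.2 (blue) and C3.2 (brown); lines are 95% confidence intervals of the limma fit, and filled points have an adjusted p under 0.05. In C17.2, 4 points are filled, and in C3.2 the *PSIP1* point is, all of them below 0.

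*KMT2A* (ENSG00000118058.21, chr11:118436456-118526832, plus strand, GRCh38) did not pass the test in either clone. It was at 44.2 and 43.1 scaled TPM in C17.2 parental libraries and at 40.2 and 42.7 in resistant libraries. For C3.2 the levels were 37.5 and 38.1 in parental and 34.8 and 37.4 in resistant libraries. The resistant libraries lay below the parental ones in both clones by less than the distance between the clones, but the groups overlapped in each clone on TPM as deposited. The log2 fold change was -0.075 in C17.2 (95% CI -0.20 to 0.054, adjusted p = 0.350) and -0.063 in C3.2 (-0.19 to 0.066, adjusted p = 0.495), and it was 0.090 in C17.2 on TPM as deposited, and 0.015 and 0.036 in the respective clones with TPM rescaled over protein-coding genes. A protein-coding transcript annotated on the same strand over *KMT2A*, AP001267.5, was at 2.94 to 3.92 TPM.

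*AFF1* (ENSG00000172493.20, chr4:86935002-87141039, plus strand) encodes a scaffold of the super elongation complex and is the partner of *KMT2A* in SEM cells. It was at 70.7 and 72.7 scaled TPM in C17.2 parental libraries and at 60.3 and 62.4 in resistant libraries. The groups did not overlap, and *AFF1* fell by 14.2% (log2 fold change -0.22 ± 0.057 SE, adjusted p = 0.0325). In C3.2 it was at 58.1 and 60.7 in parental libraries and at 55.4 and 50.3 in resistant libraries, which did not overlap but did not pass the test (-0.17, 95% CI -0.30 to -0.028, adjusted p = 0.122). These C3.2 groups overlapped on TPM as deposited. The difference between the changes of the clones was small beside its error (interaction -0.055, 95% CI -0.25 to 0.14, adjusted p = 0.711). The call in C17.2 was the weakest of the 4: as deposited, the libraries overlapped (73.60 and 71.25 against 67.47 and 71.91 TPM), with adjusted p = 0.652, and it was also lost over protein-coding genes (0.123), without the filter (0.0544), without the intensity trend (0.0599) and without any 1 of 6 libraries, namely each C17.2 library and each C3.2 parental library (adjusted p up to 0.143). Without the first C3.2 resistant library *AFF1* passed the test in C3.2 (-0.24, adjusted p = 0.0459). Transcripts annotated on the opposite strand within *AFF1* were at 1.74 to 5.33 TPM (AC093827.4), 0.24 to 1.02 TPM (AC093827.5) and 8.75 to 15.41 TPM (TECRP1). In C17.2, AC093827.4 was at 5.33 and 4.35 TPM in parental and at 1.74 and 2.52 TPM in resistant libraries. Its part in the *AFF1* values was not tested, and whether the counting used strand is not given in the sources used here.

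*PSIP1* (ENSG00000164985.15, chr9:15464066-15510995, minus strand) encodes LEDGF, which binds the complex of KMT2A and menin and holds it on chromatin. It was at 98.8 and 93.4 scaled TPM in C17.2 parental libraries and at 71.6 and 75.2 in resistant libraries. It was at 66.3 and 61.4 in C3.2 parental libraries and at 52.3 and 49.1 in resistant libraries. The groups did not overlap in either clone, also on TPM as deposited. *PSIP1* fell by 23.4% in C17.2 (log2 fold change -0.38 ± 0.060, adjusted p = 0.00534) and by 20.2% in C3.2 (-0.33 ± 0.060, adjusted p = 0.0221). The difference between these changes was -0.058 (95% CI -0.26 to 0.15, adjusted p = 0.710). The parental cells of the clones themselves differed by 0.58 on the log2 scale, more than either change, a difference between clones that was not tested. In C17.2 the call held when any 1 library was left out (adjusted p at most 0.0426) and was lost with the deposited TPM (-0.22, adjusted p = 0.0957). That in C3.2 was lost with C3.2 fitted alone (0.113), with TPM as deposited (-0.26, 0.113) and without the first parental (0.125), the second parental (0.0642) or the second resistant library of C3.2 (0.0857). *SNAPC3*, which overlaps *PSIP1* on the opposite strand, was at 11.80 to 18.72 TPM.

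*MEN1* (ENSG00000133895.14, chr11:64803510-64811294, minus strand) encodes menin, the adapter between KMT2A and LEDGF. It was at 10.6 and 12.0 scaled TPM in C17.2 parental libraries, at 11.2 and 9.74 in C17.2 resistant libraries, at 11.9 and 14.2 in C3.2 parental libraries and at 13.5 and 14.5 in C3.2 resistant libraries. Parental and resistant libraries overlapped in both clones, and the log2 fold changes were -0.11 (95% CI -0.37 to 0.15, adjusted p = 0.509) and 0.10 (-0.16 to 0.36, adjusted p = 0.60). On TPM as deposited the value in C17.2 was 0.047.

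Among the super elongation complex genes, *ELL2* changed in C17.2. *ELL2* (ENSG00000118985.16, chr5:95885098-95961851, minus strand) encodes a factor that raises the elongation rate of RNA polymerase II. It was at 7.75 and 7.60 scaled TPM in C17.2 parental libraries and at 4.57 and 5.03 in resistant libraries. The groups were far apart, and *ELL2* fell by 33.1% (log2 fold change -0.58 ± 0.15, adjusted p = 0.0288), the largest change among the 10 genes. In C3.2 it was at 7.34 and 6.78 in parental libraries and at 7.51 and 5.18 in resistant libraries, so that the resistant libraries lay on both sides of the parental ones (-0.15, 95% CI -0.50 to 0.20, adjusted p = 0.548). The interaction was not past the threshold (-0.43, 95% CI -0.93 to 0.068, adjusted p = 0.243), but did so without the second C3.2 resistant library (-0.66, adjusted p = 0.0324). The call in C17.2 was lost on TPM as deposited (-0.44, adjusted p = 0.0807), without the filter (0.0692) and without each C17.2 library or each C3.2 parental library (adjusted p up to 0.133).

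*AFF4* (ENSG00000072364.13, chr5:132875395-132963634, minus strand) encodes the main scaffold of the super elongation complex and is the close relative of *AFF1*. It was at 21.5 and 23.2 scaled TPM in C17.2 parental libraries and at 24.2 and 24.2 in resistant libraries. It was at 19.6 and 22.1 in C3.2 parental libraries and at 20.3 and 19.1 in resistant libraries. The resistant libraries were above both parental libraries in C17.2 and overlapped with them in C3.2, and neither change passed the test (0.11, 95% CI -0.063 to 0.28, adjusted p = 0.310, and -0.080, 95% CI -0.25 to 0.091, adjusted p = 0.513). In C3.2 the sign turned with TPM rescaled over protein-coding genes (0.016).

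*MLLT1* and *MLLT3* encode ENL and AF9, readers of acylated histones that recruit the super elongation complex and DOT1L. *MLLT1* (ENSG00000130382.9, chr19:6210381-6279975, minus strand) was at 11.2 and 9.77 scaled TPM in C17.2 parental libraries, at 13.7 and 9.59 in C17.2 resistant libraries, at 11.3 and 10.9 in C3.2 parental libraries and at 11.5 and 10.6 in C3.2 resistant libraries. Its groups overlapped in both clones (log2 fold changes 0.12, 95% CI -0.25 to 0.49, and -0.0039, 95% CI -0.37 to 0.36), and the sign in C17.2 rested on the first resistant library, without which the value was -0.12. *MLLT3* (ENSG00000171843.16, chr9:20341669-20622499, minus strand) was at 1.23 and 1.10 scaled TPM in C17.2 parental libraries, at 0.974 and 0.616 in C17.2 resistant libraries, at 1.24 and 1.36 in C3.2 parental libraries and at 1.42 and 0.752 in C3.2 resistant libraries. The C17.2 groups did not overlap, but did so on TPM as deposited. Neither change passed the test (-0.28, 95% CI -0.73 to 0.18, adjusted p = 0.325, and -0.16, 95% CI -0.61 to 0.30, adjusted p = 0.639). At this level a change of *MLLT3* was not detectable unless it was large, as the intervals show.

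*DOT1L* (ENSG00000104885.18, chr19:2163933-2232578, plus strand) encodes the histone methyltransferase that several fusion partners recruit. It was at 17.202 and 16.449 scaled TPM in C17.2 parental libraries and at 15.6 and 12.9 in resistant libraries. It was at 17.9 and 17.3 in C3.2 parental libraries and at 16.7 and 16.1 in resistant libraries. The resistant libraries were the lower ones in both clones, but parental and resistant libraries overlapped in each clone on TPM as deposited. Neither change passed the test (-0.23, 95% CI -0.44 to -0.026, adjusted p = 0.0932, and -0.099, 95% CI -0.30 to 0.11, adjusted p = 0.497). In C17.2 it passed without the first resistant library (-0.35, adjusted p = 0.0210). *AP3D1* and *PLEKHJ1*, which overlap *DOT1L* on the opposite strand, were at 22.84 to 31.61 and 15.93 to 21.75 TPM. Both were above *DOT1L* itself (14.89 to 17.91 TPM) in every library.

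*MLLT10* (ENSG00000078403.17, chr10:21524646-21743630, plus strand) encodes AF10, the cofactor that lets DOT1L add further methyl groups. It was at 32.5 and 29.7 scaled TPM in C17.2 parental libraries and at 24.2 and 25.4 in resistant libraries. Its levels in C3.2 were 28.0 and 28.6 in parental libraries and 29.3 and 30.6 in resistant libraries. The resistant libraries thus lay below the parental ones in C17.2 and above them in C3.2. *MLLT10* fell by 19.4% in C17.2 (log2 change -0.31 ± 0.058, adjusted p = 0.00979), and the value in C3.2 was 0.081 (95% CI -0.059 to 0.22, adjusted p = 0.416). Between the clones the change differed by -0.39 ± 0.082 (adjusted p = 0.0338). On TPM as deposited the C17.2 groups overlapped (33.80 and 29.12 against 27.11 and 29.31 TPM; adjusted p = 0.212), and the interaction was -0.29 (adjusted p = 0.177). The call in C17.2 was also lost without its first parental library (0.0525) or its first resistant library (0.0561), and the difference between the clones passed the test in only 1 of the 8 fits that left out 1 library, that without the first C3.2 resistant library (0.0443), and reached 0.120 in the others.

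Promoter sequence is shown for *PSIP1* and *MLLT10*, whose calls in C17.2 survived most settings, and for *KMT2A*, because the amino-terminal part of KMT2A binds DNA with unmethylated CG. Sequences were RefSeq windows of 300 bases (250 before to 50 after a gene start, GRCh38.p14), which matched 8 of the 10 members with 12 windows. The windows of the members held 15 to 45 CG dinucleotides, with a median of 32, against a median of 14 over all 35116 windows, of which 96% held at least 1. All windows were counted, also those of genes that did not pass the filter on low values, so these medians come from unlike sets. The motif searched was CG, which reads the same on both strands, and capitals mark it below. Each stretch is the 100 bases nearest before the start that lay in no annotated exon. It ended 25 bases before the start in *PSIP1* and 36 bases before it in *KMT2A*, and directly at the start in *MLLT10*.
*PSIP1*, chr9:15510996-15511095, minus strand: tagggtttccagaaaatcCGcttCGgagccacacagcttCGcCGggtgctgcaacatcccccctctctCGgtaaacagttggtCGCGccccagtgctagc
*MLLT10*, chr10:21534132-21534231, plus strand: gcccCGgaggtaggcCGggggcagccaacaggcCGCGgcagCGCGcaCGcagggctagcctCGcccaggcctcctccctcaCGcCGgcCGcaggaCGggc
*KMT2A*, chr11:118436356-118436455, plus strand: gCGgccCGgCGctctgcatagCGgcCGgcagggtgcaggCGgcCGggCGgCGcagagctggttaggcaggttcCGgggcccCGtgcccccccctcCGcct
The 300-base windows around these held 33 CG in *PSIP1*, 45 in *MLLT10* and 36 in *KMT2A*, more than 82.8%, 96.5% and 87.3% of all windows, and the stretches shown held 7, 12 and 12. A second window of *PSIP1* held 29 CG and a second window of *MLLT10* held 15, more than 75.8% and 51.1% of all windows. Both *MLLT10* windows lie inside the annotated gene, downstream of its outermost start at chr10:21524646. Neither methylation nor binding was measured in these cells here.

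Ratios between members within a library do not depend on the scaling between libraries. Both groups of a clone had 2 libraries, so that the smallest p an exact permutation test can give was 0.333 (two-sided). None of the 16 ratio comparisons could pass that test, and the ratios were not fitted in a model. *MEN1*/*PSIP1*, the adapter against the tether, was 0.108 and 0.129 in C17.2 parental libraries and 0.156 and 0.130 in resistant libraries, and 0.179 and 0.232 in C3.2 parental libraries and 0.259 and 0.295 in resistant libraries. It was higher in both resistant libraries of each clone, by 0.27 and 0.44 on the log2 scale, and did not overlap between the clones. *AFF1*/*AFF4*, the fusion partner against its relative, was 3.28 and 3.13 in C17.2 parental and 2.49 and 2.58 in resistant libraries, and 2.96 and 2.74 in C3.2 parental and 2.73 and 2.64 in resistant libraries. This ratio was lower in the resistant libraries of each clone, by 0.34 and 0.085 on the log2 scale, and in C3.2 the nearest libraries were 2.74 and 2.73. *KMT2A*/*AFF1*, the 2 genes of the fusion, stayed between 0.594 and 0.744 in all 8 libraries. It was 0.626 and 0.594 in C17.2 parental against 0.667 and 0.685 in resistant libraries, while the C3.2 groups overlapped.

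The pairs of related proteins moved as follows. *MLLT1*/*MLLT3* was 9.15 and 8.87 in C17.2 parental libraries and 14.1 and 15.6 in resistant libraries, a shift of 0.72 on the log2 scale that rests on *MLLT3* values near 1 TPM. In C3.2 it was 9.12 and 8.02 in parental and 8.08 and 14.1 in resistant libraries, which overlapped. *ELL2*/*ELL* was 1.26 and 1.53 in C17.2 parental and 0.943 and 1.16 in resistant libraries, and 1.16 and 1.26 in C3.2 parental and 1.13 and 0.797 in resistant libraries. The more abundant of this pair was *ELL2* in all 4 parental libraries, and also in the second C17.2 and the first C3.2 resistant library. *KMT2A*/*KMT2B* lay between 2.46 and 3.47 and overlapped between parental and resistant libraries in both clones, as did *KMT2A*/*MEN1* and *DOT1L*/*MLLT10* in C17.2. In C3.2 *KMT2A*/*MEN1* was 3.16 and 2.68 in parental and 2.58 and 2.59 in resistant libraries, and *DOT1L*/*MLLT10* was 0.640 and 0.607 against 0.569 and 0.525.

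**Figure D3:**
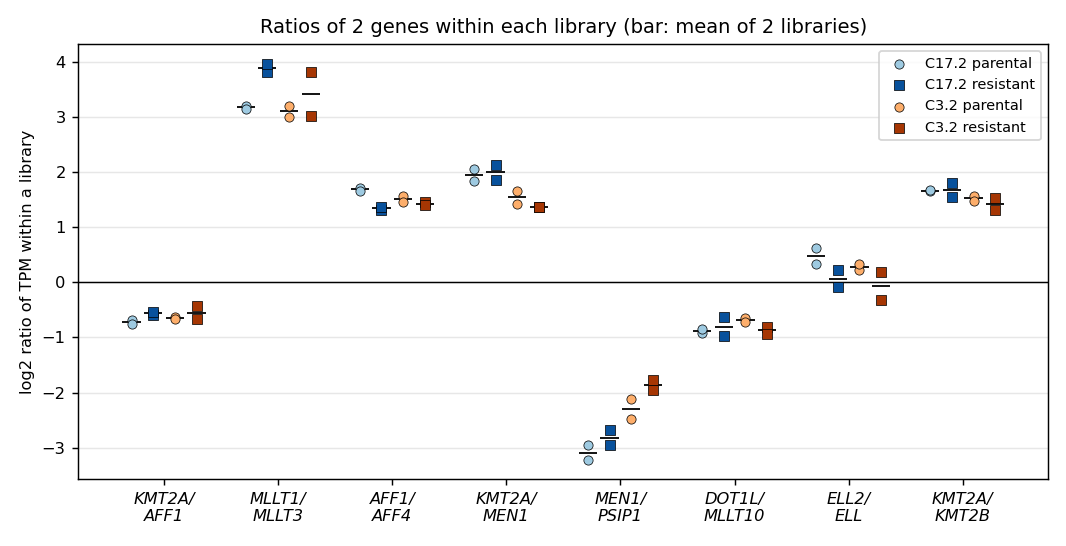
Log2 ratio of the TPM of 2 genes within each library, for 8 pairs; circles are parental and squares resistant libraries, and the bar is the mean of the 2 libraries of a group. *MEN1*/*PSIP1* is higher and *AFF1*/*AFF4* lower in both resistant libraries of each clone, and the spread within a group is widest for *MLLT1*/*MLLT3* in C3.2 resistant cells.

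Relatives of the members were examined as a list of 9 genes, of which 8 were tested (*AFF2* was at 0.16 to 0.86 TPM). In C17.2, 4 were lower, none was higher and 4 did not pass the test, and the median of their log2 fold changes was -0.22. Of all genes tested there, 14.2% were lower and 12.9% higher. In C3.2, *ELL3* was lower and 7 did not pass, with a median of -0.022, where 6.74% of all genes were lower and 4.54% higher. *ELL3*, the third gene of the ELL elongation factor family, was at 29.0 and 26.4 scaled TPM in C17.2 parental libraries and at 14.2 and 13.9 in resistant libraries. It was at 25.4 and 26.9 in C3.2 parental libraries and at 18.3 and 20.4 in resistant libraries. The groups were far apart in both clones: the log2 fold change was -0.93 ± 0.073 in C17.2 (adjusted p = 0.000437) and -0.42 ± 0.073 in C3.2 (adjusted p = 0.0187), and the fall was larger in C17.2 (interaction -0.51, adjusted p = 0.0312). The C3.2 call held in 6 of 8 alternatives (adjusted p up to 0.111) and the interaction in 4 of 7. The C3.2 call and the interaction were lost on TPM as deposited (adjusted p = 0.0559 and 0.0924), the former also without either C3.2 parental library (up to 0.109), and the interaction held in 1 of the 8 fits that left out 1 library, that without the first C3.2 resistant library.

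The other called relatives changed in C17.2. *AFF3*, a lymphoid relative of *AFF1*, was at 21.0 and 22.1 scaled TPM in C17.2 parental and at 15.2 and 16.4 in resistant libraries (log2 fold change -0.43, adjusted p = 0.00405). *YEATS4*, which like ENL and AF9 holds a YEATS reader domain, was at 33.3 and 31.7 in parental and at 25.0 and 26.2 in resistant libraries (-0.33, adjusted p = 0.00860). *MLLT6*, the relative of *MLLT10*, was at 63.5 and 65.7 in parental and at 57.2 and 53.5 in resistant libraries (-0.22, adjusted p = 0.0377). On TPM as deposited *AFF3* kept its call (adjusted p = 0.0451), while *YEATS4* (0.173) and *MLLT6* (0.612) lost theirs. Relatives that did not pass in C17.2 were *KMT2B*, the paralog of *KMT2A* (-0.076, adjusted p = 0.503), *HDGFL2*, the relative of *PSIP1* (0.15, adjusted p = 0.249), *YEATS2* (-0.071, adjusted p = 0.281) and *ELL* (-0.22, adjusted p = 0.197). In C3.2 the 7 uncalled relatives ranged from -0.091 to 0.14.

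The subunits that work with KMT2A in COMPASS, the family of histone methyltransferase complexes, and proteins associated with it made a list of 17 tested genes. In C17.2, 4 were higher (*DPY30*, *KMT2D*, *CXXC1* and *WDR82*), none was lower and 13 did not pass, with a median of 0.077. In C3.2 none of 17 passed, with a median of 0.045. Of all genes, 12.9% were higher and 14.2% lower in C17.2, and 4.54% and 6.74% in C3.2. *DPY30*, a core subunit shared by these complexes, was at 22.1 and 20.4 scaled TPM in C17.2 parental and at 27.8 and 27.6 in resistant libraries. In C3.2 it was at 27.6 and 29.5 in parental and at 25.0 and 24.0 in resistant libraries. It rose in C17.2 (log2 fold change 0.37, adjusted p = 0.00531) and was -0.21 in C3.2 (adjusted p = 0.0677), and this difference between the clones passed the test (0.58, adjusted p = 0.0101).

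Further factors that act within or beside the super elongation complex (P-TEFb, the PAF1 complex, SPT4, SPT5 and SPT6, and ELL cofactors) made a list of 16. In C17.2, 4 were higher (*SUPT4H1*, *CTR9*, *RTF1* and *WDR61*), *EAF2* was lower and 11 did not pass, with a median of 0.15. In C3.2, 2 were higher (*CTR9* and *SUPT4H1*) and 14 did not pass, with a median of 0.039. The shares of all genes were 12.9% higher and 14.2% lower in C17.2, and 4.54% and 6.74% in C3.2. *SUPT4H1*, encoding the elongation factor SPT4, was at 36.2 and 35.9 scaled TPM in C17.2 parental and at 61.5 and 60.4 in resistant libraries, and at 45.3 and 45.1 in C3.2 parental and at 54.4 and 52.1 in resistant libraries. It rose in both clones (0.74, adjusted p = 0.000105, and 0.23, adjusted p = 0.0187), and more in C17.2 (interaction 0.51, adjusted p = 0.00489). *CTR9*, a scaffold of the PAF1 complex, was at 11.6 and 11.7 in C17.2 parental and at 19.4 and 19.5 in resistant libraries, and at 12.8 and 11.8 in C3.2 parental and at 14.7 and 15.4 in resistant libraries. It rose in both clones as well (0.69, adjusted p = 0.000477, and 0.27, adjusted p = 0.0306; interaction 0.42, adjusted p = 0.0252). The *CTR9* call in C3.2 held in 1 of the 8 fits that left out 1 library, that without the first C3.2 resistant library, and in the others the adjusted p reached 0.131. The *SUPT4H1* call there was lost without either C3.2 parental library (up to 0.0993). *RTF1* and *WDR61*, like *CTR9* genes of the PAF1 complex, rose by less in C17.2 (0.36 and 0.28). *EAF2*, a cofactor of the ELL proteins, was at 7.83 and 7.14 in C17.2 parental and at 4.73 and 4.37 in resistant libraries (-0.61, adjusted p = 0.00282). In C3.2 *EAF2* was at 8.80 and 9.14 in parental and at 7.58 and 6.67 in resistant libraries (-0.30, adjusted p = 0.0664). The kinase gene *CDK9* of P-TEFb did not pass in either clone (0.016, adjusted p = 0.908, and -0.15, adjusted p = 0.273).

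Known targets of KMT2A fusion proteins, 20 genes, moved in both directions. In C17.2, 6 were lower, 2 were higher (*CPEB2* and *EYA1*) and 12 did not pass, with a median of -0.0056. In C3.2, 4 were lower, 1 was higher and 15 did not pass, with a median of 0.083. Of all genes, 14.2% were lower and 12.9% higher in C17.2, and 6.74% and 4.54% in C3.2. *MYC*, a transcription factor gene of growth, was at 127 and 125 scaled TPM in C17.2 parental and at 78.6 and 70.2 in resistant libraries, and at 157 and 153 in C3.2 parental and at 128 and 126 in resistant libraries. It fell in both clones (-0.76, adjusted p = 0.000407, and -0.29, adjusted p = 0.0292), more in C17.2 (interaction -0.47, adjusted p = 0.0208). The call in C3.2 was fragile: it held in 2 of 8 alternatives (adjusted p up to 0.125, value -0.17 after quantile normalization), and it was lost without any 1 C3.2 library or 1 C17.2 parental library (up to 0.151). The interaction was lost on TPM as deposited (0.0710) and without any 1 parental library (up to 0.0860). *PBX3*, a cofactor of HOX proteins, was at 72.8 and 66.5 in C17.2 parental and at 43.4 and 44.1 in resistant libraries, and at 57.4 and 53.6 in C3.2 parental and at 34.8 and 25.1 in resistant libraries. It fell in both clones (-0.66, adjusted p = 0.0169, and -0.89, adjusted p = 0.0143), but the C17.2 call was lost without any 1 C17.2 library (up to 0.106) and that in C3.2 without either C3.2 parental library (up to 0.101). *PROM1* rose in C3.2 (0.23, adjusted p = 0.0251) from 204 and 197 to 233 and 237, a call lost without either parental library of either clone or the second C3.2 resistant library (up to 0.122). *EYA1* was at 0.34 and 0.29 TPM in C17.2 parental libraries and at 0.98 and 1.37 TPM in resistant libraries (adjusted p = 0.0448). It passed the filter on low values only through the second of these resistant libraries, and no support is drawn from its call.

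*MEIS1* and the listed HOXA genes *HOXA5*, *HOXA7*, *HOXA9* and *HOXA10* did not pass the test in either clone. *HOXA9*, named with the next genes after the values were seen, was at 55.6 to 67.5 scaled TPM in all libraries (0.051, adjusted p = 0.557, and -0.076, adjusted p = 0.436). *MEIS1* was at 67.8 to 82.1 (0.075, adjusted p = 0.340, and 0.21, adjusted p = 0.0538). For *MEIS1* and *HOXA7* both resistant libraries lay above both parental libraries in each clone, where 32.4% of all genes did in C17.2 and 28.3% in C3.2. *HOXA7* was at 24.4 and 21.7 in C3.2 parental and at 32.8 and 28.1 in resistant libraries (0.39, adjusted p = 0.0684). *HOXA5*, *HOXA9* and *HOXA10* did not lie above in both clones. *MYB* and *FLT3*, encoding a transcription factor and a receptor of early blood cells, fell in both clones (-0.27 and -0.71 for *MYB*, -0.29 and -0.23 for *FLT3*), where *MYB* fell more in C3.2 (interaction 0.45, adjusted p = 0.0101). Both C17.2 calls held in 7 of 8 alternatives (adjusted p up to 0.277 for *MYB* and 0.189 for *FLT3*). The *MYB* call in C3.2 also held in 7 of 8 (up to 0.0539). The *FLT3* call in C3.2 held in 4 of 8 alternatives (-0.12 after quantile normalization) and was lost without either C3.2 parental library (up to 0.0959). *LMO2* was lower in C17.2 (-0.58, adjusted p = 0.00130) and was 0.20 in C3.2 (adjusted p = 0.0941; interaction -0.78, adjusted p = 0.00487).

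Other genes found as partners of *KMT2A* in leukemia numbered 15, of which 13 were tested (*TET1* was listed at 0 and *GAS7* was not analysed here). In C17.2, 6 were lower, *ARHGEF12* was higher and 6 did not pass, with a median of -0.099. In C3.2, 2 were lower and 11 did not pass, with a median of 0.073. The shares of all genes were 14.2% lower and 12.9% higher in C17.2, and 6.74% and 4.54% in C3.2. *ARHGEF12* was at 25.9 and 28.5 scaled TPM in C17.2 parental and at 31.4 and 32.5 in resistant libraries (0.23, adjusted p = 0.0272), and the call held in 3 of the 8 fits that left out 1 library. *MLLT11* fell in both clones (-0.41, adjusted p = 0.0400, and -0.55, adjusted p = 0.0298), from 2.27 and 2.56 to 1.62 and 1.52 in C17.2 and from 0.690 and 0.765 to 0.164 and 0.193 in C3.2, low levels at which the value moved with the pseudocount to -1.57 in C3.2, and its calls held in 3 and 4 of the 8 fits that left out 1 library. Over the 5 lists, 28 genes passed in C17.2, of which 16 also did on TPM as deposited, and 8 passed in every alternative tried (*AFF3*, *ELL3*, *DPY30*, *EAF2*, *CTR9*, *SUPT4H1*, *MYC* and *LMO2*). Of 10 that passed in C3.2, 6 did so on TPM as deposited and none in every alternative.

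**Figure D4:**
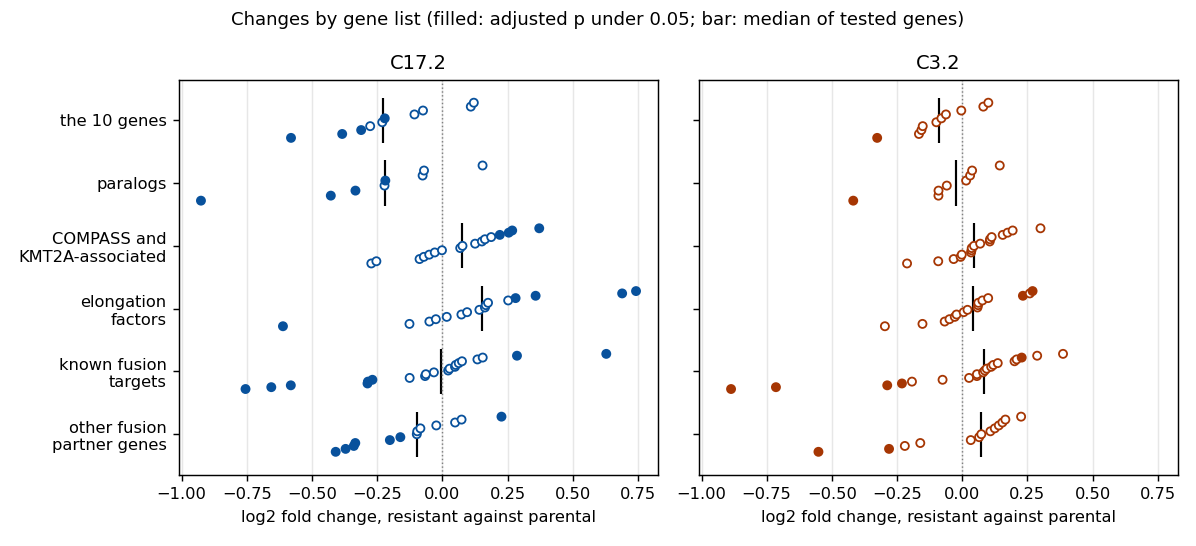
Log2 fold change in resistant against parental cells of the tested genes of each list, in C17.2 (left) and C3.2 (right); each point is a gene, filled points have an adjusted p under 0.05, and the bar is the median of the list. In C17.2 the medians of the 10 genes and of their paralogs are -0.23 and -0.22, while those of the COMPASS and elongation lists are 0.077 and 0.15.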

How the data were processed

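Gene-level TPM of 8 libraries of rRNA-depleted RNA was used. The authors used Trim Galore 0.6.3 for trimming, STAR 2.7.9a for alignment (GRCh38.p13) and RSEM 1.3.1 for quantification on Gencode release 31, and deposited TPM that were not scaled between libraries. TPM holds no depth, so intervals cover the spread between libraries. All 92 ERCC rows were 0. The study fitted limma-voom, which takes counts, and this was replaced by limma on log values.

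Genes at 1 TPM or more in at least 1 library were kept. Library factors were trimmed mean log2 ratios to the geometric mean library over 12301 genes at 1 TPM or more in every library, leaving out 30% of ratios and 5% of means at each end. Log2(scaled TPM + 1) was fitted in limma 3.58.1 (R 4.3.3) with an intensity trend, in 1 model of 4 groups, and two-sided p-values were Benjamini-Hochberg adjusted over all 15614 genes at a threshold of 0.05. Fold changes are on the log2(scaled TPM + 1) scale, which understates those of low genes. Percent changes were computed from them, and SE is the standard error of the fit. The fit was tested on simulated data. Ratios used deposited TPM and an exact permutation test.

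Members and lists were chosen with earlier results of these data known. Named genes were the 10 members, all relatives, and, per list and clone, the called gene with the largest rise and the largest fall whose libraries did not overlap. Positions came from Gencode release 44 on GRCh38, by gene identifier. Promoters came from RefSeq. An item of the elongation list is not reported here. *SEPTIN* genes are listed under older symbols. Tables and plots used Python 3.11.15 with pandas 2.3.3, and matplotlib 3.10.9. Alternatives are given in the closing section.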

Additional observations from a re-analysis of the deposited data

Results flagged for a closer look

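The change between parental and resistant cells differed between the clones, by the test of the interaction (limma, adjusted p under 0.05), for 1 of the 10 members and for 11 genes of the 5 lists. Over all genes tested, 9.7% passed this test. Values are C17.2 minus C3.2, on the log2 scale.

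*MLLT10* differed by -0.39 (adjusted p = 0.0338), being -0.31 in C17.2 and 0.081 in C3.2. Among the relatives of the members, *ELL3* fell in both clones and differed by -0.51 (adjusted p = 0.0312). Of the COMPASS genes, *DPY30* differed by 0.58 (adjusted p = 0.0101) and *SETD1B*, which encodes a methyltransferase of this family, by -0.57 (adjusted p = 0.0417), from -0.27 and 0.30 in the clones, neither of which passed the test.

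Of the elongation factors, *SUPT4H1* differed by 0.51 (adjusted p = 0.00489) and *CTR9* by 0.42 (adjusted p = 0.0252), both higher in resistant cells of either clone.

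Of the fusion targets, *MYC* differed by -0.47 (adjusted p = 0.0208), *MYB* by 0.45 (adjusted p = 0.0101), *LMO2* by -0.78 (adjusted p = 0.00487) and *RUNX1* by -0.31 (adjusted p = 0.0385). Of the other partner genes, *EPS15* differed by -0.48 (adjusted p = 0.0133) and *SEPTIN9* by -0.43 (adjusted p = 0.0252). *DPY30*, *SUPT4H1*, *MYB* and *LMO2* passed in every alternative tried. *MLLT10*, *ELL3*, *SETD1B* and *RUNX1* passed in 4 of the 7 alternatives that left out no library (adjusted p up to 0.272). *MYC*, *EPS15* and *SEPTIN9* passed in 6 of these 7 (up to 0.0755). The leading number of the library names, whose meaning is not given, ran in a separate series for each clone, so that differences between clones cannot be told apart from whatever that number marks.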

How the results depend on the processing

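The number of members called moved most with the scaling and the libraries. It was 4 in C17.2, 1 in C3.2 and 1 for the difference between the clones, and 0 in all 3 comparisons on TPM as deposited. Without the filter it was 2 in C17.2 and 0 for the difference, which was also 0 without the intensity trend, and with C3.2 fitted alone it was 0. Over the fits that left out 1 library each, it ranged from 1 to 4 in C17.2, from 0 to 2 in C3.2 and from 0 to 1 for the difference. Such fits assume that a lone library varies like the other groups. Calls over all genes numbered 4241 in C17.2 (2393 to 4566 with 1 library left out), 1762 in C3.2 (342 to 1804, 1154 without the filter, 74 with C3.2 fitted alone) and 1515 for the difference (562 to 1765). The cause of these moves was not tested.

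No called member changed sign in any alternative. Signs that turned belonged to values that had not passed the test, apart from *AFDN*, called lower in C17.2, which was 0.0040 on TPM as deposited. On TPM as deposited *KMT2A* was 0.090 and *MEN1* 0.047 in C17.2, *MLLT1* 0.054 in C3.2, and the differences between the clones were 0.091 for *KMT2A*, 0.048 for *AFF1* and 0.046 for *PSIP1*. With TPM rescaled over protein-coding genes *KMT2A* was 0.015 in C17.2, and in C3.2 *KMT2A* was 0.036, *AFF4* 0.016 and *MLLT1* 0.088. After quantile normalization *MLLT1* was 0.0069 in C3.2. With 1 library left out, *MLLT1* ranged from -0.12 to 0.36 in C17.2 and from -0.057 to 0.047 in C3.2, and there *MEN1* from -0.022 to 0.22, *AFF4* from -0.16 to 0.0030, *MLLT3* from -0.39 to 0.077 and *ELL2* from -0.38 to 0.079. The differences between the clones ranged from -0.061 to 0.041 for *KMT2A*, from -0.12 to 0.014 for *AFF1*, from -0.11 to 0.36 for *MLLT1* and from -0.35 to 0.11 for *MLLT3*.

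The context genes were recomputed under these alternatives by a choice made after the data were seen. No paired analysis was possible because the labels give the groups no shared replicate numbers.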
